A study of Homo sapiens with 29 samples.

Results

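The genes described here are 41 genes, most of them of homologous recombination and of the Fanconi anemia pathway, with POLQ, MSH6 and PMS2 from other repair. They were taken by name from a fixed list, chosen with earlier results of these data known, and are called members below. All 41 were found among the 35579 genes to which the transcripts of the table could be summed. RNA was measured in PC9 cells, a human lung adenocarcinoma line with an activating EGFR mutation, in 29 libraries of 10 lines. Cells were untreated (10 libraries), treated with the EGFR inhibitor erlotinib (E, 10 libraries), or treated with erlotinib and AF154, an antibody that activates the receptor tyrosine kinase AXL (EA, 9 libraries). Treatments lasted 24 h, and each line had 1 library per treatment. EA cells of the knockout line were not analysed here.

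The lines were parental PC9 cells (PAR), cells in which AXL was knocked out with CRISPR-Cas9 (KO), and 8 lines made from those knockout cells by lentivirus. The virus carried either the unchanged receptor (WT), a receptor without kinase activity (KD), or a receptor with 1 tyrosine changed to phenylalanine (Y634F, Y643F, Y698F, Y726F, Y750F or Y821F). Per the study, only a minority of the cells in each transduced line express AXL, and the AXL levels of these lines differ. TPM is a transcript's level per unit of its length, scaled to the same total in each library. On this scale KO had the least AXL RNA, with 92.4 TPM before treatment and 79.3 TPM after E, while the other lines had 217 to 428 TPM and 245 to 852 TPM. Markers of epithelial cells summed to 8360 to 11615 TPM, while 4 immune markers, mostly CD68, summed to 28.1 to 68.3 TPM, 3 endothelial markers to 2.05 to 10.2 TPM and 4 fibroblast markers, mostly COL1A1, to 17.0 to 71.3 TPM. CD3E, which defines T cells, was listed at 0 in every library. The E library of PAR stood apart, with 17.4% of its TPM in mitochondrial genes, against 12.3 to 14.2% in the other E libraries. Among the EA libraries this share was 17.4% in Y821F and 16.4% in PAR, against 12.9 to 14.8% in the others.

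Homologous recombination repairs a broken chromosome by copying the intact sister chromatid, and it therefore works mainly in cells that are replicating or have replicated their DNA. The ends are first resected to single strands, a recombinase is loaded onto them with the help of the BRCA proteins, and the joined molecules are later separated. The Fanconi pathway removes crosslinks between the DNA strands by attaching ubiquitin to FANCD2 and FANCI, and then hands the resulting break to recombination.

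The members were, with few exceptions, expressed at lower levels with erlotinib than in untreated cells, in every line. This does not extend to all genes of these pathways. Of 48 further ones, given below, 30 were called lower and 9 higher. The member levels summed to between 1204 TPM in KD and 1354 TPM in Y698F in untreated cells (median 1274 TPM, n = 10), and to between 515 TPM in PAR and 672 TPM in Y643F with E (median 610 TPM, n = 10). The untreated and E ranges of this sum did not overlap. Of the 41 members, 35 were lower with E at a limma adjusted p under 0.05, 3 were higher (FANCF, MUS81 and FANCC), and NBN, ATM and PMS2 did not pass. Over all 14111 genes tested, 36.3% were called lower and 35.5% higher. The median log2 difference, E minus untreated on the log2(TPM + 1) scale, was -1.24 over the members and 0.01 over all genes tested. For 30 members every E library lay below every untreated library, against 17.2% of all genes, and for FANCF every E library lay above every untreated library, against 12.6% of all genes. In single lines, 34 members were lower in each of the 10 lines, against 26.7% of all genes, and 2, FANCF and MUS81, were higher in each, against 22.8%.

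**Figure D1:**
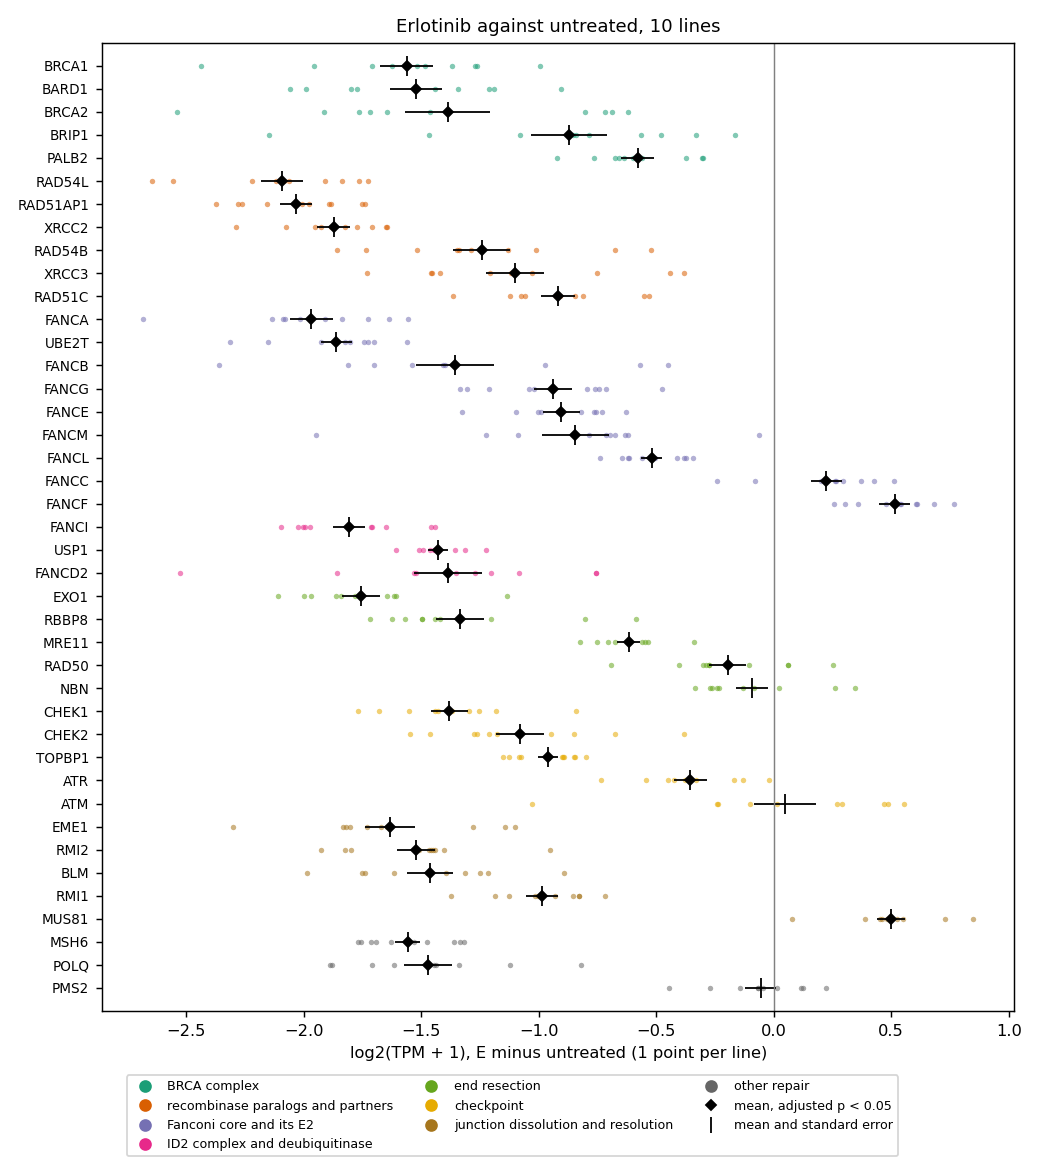
Each point is the difference between the E and the untreated library of 1 of 10 lines, in log2(TPM + 1), for each of the 41 members (vertical axis, ordered by role). Bars are the mean and its standard error from limma, and diamonds mark an adjusted p under 0.05. The means of the 35 members called lower run from -2.09 for RAD54L to -0.20 for RAD50, while FANCF, MUS81 and FANCC sit right of it.

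In bulk RNA, fewer cells that express a gene and less RNA per cell cannot be told apart. All 12 proliferation markers examined beside the members, among them MKI67, TOP2A, CCNB1 and MCM6, were also called lower with E, with a median difference of -1.51. The epithelial marker sum moved as well, from 8360 to 9518 TPM untreated to 10839 to 11615 TPM with E, and so did that of the fibroblast markers, from 17.0 to 36.3 TPM to 37.3 to 60.3 TPM. The immune sum was 34.3 to 68.3 TPM untreated and 28.1 to 45.6 TPM with E, and the endothelial sum 5.45 to 10.2 TPM and 2.05 to 6.81 TPM. The part of these markers in the fall of the repair genes was not tested. Without PAR, whose median over all genes was -0.156 against -0.03 to 0.07 in the other lines, 34 members were called lower and 3 higher, with a median of -1.17. Since each line gave 1 library per treatment, the p-values measure the spread between lines. That spread also holds the variation between cultures, which cannot be told apart from it. The transduced lines were made from the same knockout cells, so the lines are not fully independent.

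The promoters of the members with the largest falls are shown beside those of members with the smallest mean changes, so that their sequences can be compared. Each line below gives the 150 bases before the RefSeq start site on GRCh38.p14, written 5′ to 3′ on the gene's strand. Capitals mark letters that match 1 of 4 motifs on either strand: E2F letters (TTTCCCGC, TTTGCCGC, TTTCGCGC or TTTGGCGC), the letters of the cell cycle element CHR (TTTGAA, with TTTAAA as its second form), the CCAAT box, and the GC box with the letters GGGCGG. The windows with the largest falls are RAD54L (chr1:46247613-46247762, plus strand), RAD51AP1 (chr12:4538740-4538889, plus strand) and FANCA (chr16:89816648-89816797, minus strand).
RAD54L: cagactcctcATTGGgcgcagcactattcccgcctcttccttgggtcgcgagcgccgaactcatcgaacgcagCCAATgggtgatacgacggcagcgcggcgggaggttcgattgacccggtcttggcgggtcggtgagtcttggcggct
RAD51AP1: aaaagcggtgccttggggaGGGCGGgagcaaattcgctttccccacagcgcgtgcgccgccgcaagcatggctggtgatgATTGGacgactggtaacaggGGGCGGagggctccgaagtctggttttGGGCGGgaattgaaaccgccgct
FANCA: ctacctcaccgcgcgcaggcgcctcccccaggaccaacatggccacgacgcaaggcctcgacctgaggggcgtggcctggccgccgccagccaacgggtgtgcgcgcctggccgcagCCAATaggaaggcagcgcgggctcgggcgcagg
The windows with the smallest mean changes are ATM (chr11:108222917-108223066, plus strand) and PMS2 (chr7:6009107-6009256, minus strand). In single lines ATM ran from -1.03 in PAR to 0.55 in Y643F, and its coding transcripts alone differed by -0.30. The level of PMS2 is uncertain because of its pseudogenes. That of FANCF (chr11:22625824-22625973, minus strand), the member that rose most, was added after its value was seen.
ATM: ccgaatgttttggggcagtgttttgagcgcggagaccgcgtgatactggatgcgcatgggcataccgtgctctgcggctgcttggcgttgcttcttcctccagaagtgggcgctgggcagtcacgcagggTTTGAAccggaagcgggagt
PMS2: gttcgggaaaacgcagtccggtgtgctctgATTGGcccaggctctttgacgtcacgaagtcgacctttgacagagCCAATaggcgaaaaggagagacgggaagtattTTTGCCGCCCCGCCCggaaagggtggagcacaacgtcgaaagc
FANCF: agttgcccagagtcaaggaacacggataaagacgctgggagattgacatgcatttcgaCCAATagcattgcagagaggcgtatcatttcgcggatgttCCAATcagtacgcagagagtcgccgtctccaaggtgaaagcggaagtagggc
RAD54L, RAD51AP1 and FANCA held 2, 1 and 1 matches to CCAAT in these 150 bases, and RAD51AP1 held 3 GC boxes. FANCF, which rose, held 2 matches to CCAAT, and PMS2, which did not pass the test, held 2 matches to CCAAT, 2 GC boxes and E2F letters that overlap a GC box. CHR letters were found only in the ATM window among these 6.

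Whole windows of 300 bases, 250 before and 50 after the start, were held for 37 of the 41 members. For all genes the first window listed per symbol was taken, whatever the level of the gene. Member windows were instead those nearest the start of the coding transcript with the highest untreated level, so the shares are not matched. E2F letters were in 8 of these 37 members (XRCC2, FANCA, FANCC, FANCD2, TOPBP1, RMI1, MSH6 and PMS2), against 3.3% of the windows of all 27305 genes. CHR letters were in 7 (BRIP1, FANCC, UBE2T, EXO1, ATM, BLM and POLQ), against 24.3% of all windows. The CCAAT box was in 19 and the GC box in 28, against 35.7% and 44.6%. Among the 32 members with a window that were called lower with E, 6 held E2F letters, and among the 5 that were not, 2 did (FANCC and PMS2). A match describes these letters only, and is neither a binding site nor a cause of the level.

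The BRCA1 complex and its partners fell as a group, with 5 of 5 members called lower and a median difference of -1.39. BRCA1, a ubiquitin ligase that directs broken ends to recombination, ranged in untreated cells from 27.2 TPM in Y750F to 36.7 TPM in PAR (median 31.9 TPM, n = 10). With E it ranged from 5.95 TPM in PAR to 13.4 TPM in Y821F (median 10.3 TPM, n = 10). The ranges did not overlap, and BRCA1 was lower in 10 of 10 lines (log2 difference -1.56, SE 0.11, limma adjusted p = 2.64e-08). BARD1, the partner that stabilizes BRCA1, went from 13.0 to 19.0 TPM untreated (median 15.02 TPM) to 3.23 to 6.75 TPM with E (median 4.91 TPM), again without overlap (log2 difference -1.52, SE 0.11, adjusted p = 2.41e-08). BRCA2, which loads the recombinase, differed by -1.39 (SE 0.18) and BRIP1, a helicase bound to BRCA1, by -0.87 (SE 0.16). PALB2, the bridge between BRCA1 and BRCA2, had the smallest fall of the group, at -0.58 (SE 0.07), and its E and untreated ranges overlapped. BRCA1 has a related partial copy in the genome, and the division of shared reads between such copies was not examined.

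Partners and paralogs of the recombinase had the largest falls. All 6 were called lower, with a median of -1.56 and no overlap of the ranges for any of them. RAD54L, a motor protein that helps the recombinase invade the sister chromatid, lay between 30.9 TPM in PAR and 42.1 TPM in Y821F in untreated cells (median 36.8 TPM). With E it lay between 4.10 TPM in PAR and 11.3 TPM in Y698F (median 8.12 TPM), a log2 difference of -2.09 (SE 0.09, limma adjusted p = 1.39e-10). RAD51AP1, which stimulates strand joining, went from 39.2 to 56.2 TPM untreated (median 48.7 TPM) to 8.09 to 14.3 TPM with E (median 10.8 TPM; log2 difference -2.03, SE 0.07, adjusted p = 1.34e-11). XRCC2 differed by -1.87 (SE 0.07), RAD54B by -1.24 (SE 0.12), XRCC3 by -1.10 (SE 0.12) and RAD51C by -0.92 (SE 0.07). Thus RAD51C, the most abundant of the 6 in untreated cells at 83.5 ± 11.1 TPM (SD, n = 10), had the smallest difference.

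The Fanconi core complex and its conjugating enzyme were the most divided group, with 7 of 9 members called lower, 2 called higher and a median of -0.90. FANCA, a subunit of the core, went from 43.2 TPM in WT to 64.2 TPM in PAR in untreated cells (median 47.3 TPM) to 9.15 TPM in PAR to 17.4 TPM in Y698F with E (median 11.001 TPM). That is a log2 difference of -1.97 (SE 0.09, limma adjusted p = 2.63e-10). UBE2T, the enzyme that carries ubiquitin to FANCD2 and FANCI, went from 59.4 to 74.9 TPM (median 64.5 TPM) to 11.7 to 21.0 TPM (median 18.0 TPM; log2 difference -1.86, SE 0.07, adjusted p = 2.16e-11). Neither gene had overlapping ranges. FANCB fell by 1.36, FANCG by 0.94, FANCE by 0.90, FANCM, the translocase that recognizes the lesion, by 0.84 and FANCL, the ligase, by 0.52 on the log2 scale.

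FANCF and FANCC, both subunits of the core, went the other way. FANCF lay between 5.46 and 6.55 TPM in untreated cells (median 5.91 TPM) and between 7.62 and 10.003 TPM with E (median 9.16 TPM). It was higher in 10 of 10 lines, by 0.51 (SE 0.06, limma adjusted p = 7.92e-06). FANCC ranged from 28.3 to 37.6 TPM untreated (median 32.0 TPM) and from 31.4 to 41.5 TPM with E (median 38.3 TPM), which overlap. It was higher in 8 of 10 lines, but not in PAR or KO, and the mean difference was 0.22 (SE 0.07, adjusted p = 0.00829). With protein-coding transcripts alone FANCC turned to -0.16 (adjusted p = 0.0829), and its adjusted p over all alternatives ran from 5.33e-04 to 1.0. The alternatives include a test against a log2 change of 0.5, which a mean difference of 0.22 cannot pass.

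The targets of the core moved together. FANCI and FANCD2, which form the clamp that receives ubiquitin, and USP1, which removes it, were all called lower, with a median of -1.43. FANCI went from 72.2 TPM in PAR to 99.7 TPM in Y643F untreated (median 88.4 TPM) to 17.7 TPM in PAR to 32.8 TPM in Y698F with E (median 23.9 TPM; log2 difference -1.81, SE 0.07, limma adjusted p = 4.78e-11). USP1 had a narrow spread between lines, with 41.8 to 46.2 TPM untreated (median 43.9 TPM) and 14.1 to 17.8 TPM with E (median 15.6 TPM). Its difference was -1.43 (SE 0.04, adjusted p = 4.53e-12), the smallest standard error of the 41 members. FANCD2 differed by -1.39 (SE 0.14). FANCD2 has related pseudogenes, so its level is less certain than those of the other 2.

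End resection was uneven. EXO1, a nuclease of long-range resection, went from 27.0 to 39.1 TPM untreated (median 29.1 TPM) to 5.56 to 14.8 TPM with E (median 7.79 TPM). Its log2 difference was -1.76 (SE 0.08, limma adjusted p = 2.97e-10). RBBP8, the cofactor that starts resection, went from 22.4 to 38.2 TPM (median 30.8 TPM) to 9.09 to 16.5 TPM (median 11.9 TPM; log2 difference -1.34, SE 0.10, adjusted p = 5.10e-08). Neither gene had overlapping ranges. The 3 subunits of the complex that first binds a broken end had smaller mean differences. MRE11, its nuclease, went from 22.2 to 32.9 TPM (median 29.7 TPM) to 12.7 to 21.4 TPM (median 19.5 TPM), also without overlap, and differed by -0.62 (SE 0.05). RAD50 differed by -0.20 (SE 0.08, adjusted p = 0.0374), with 3 of 10 lines higher. That call held in 4 of 10 fits with a line left out and in 4 of 9 other alternatives, with adjusted p from 0.00919 to 1.0. NBN lay at 31.5 ± 3.30 TPM untreated and 29.6 ± 4.27 TPM with E (SD, n = 10), and its difference of -0.09 did not pass (95% interval -0.24 to 0.06, adjusted p = 0.240).

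The downstream checkpoint kinases had lower mean differences than the upstream ones, a contrast that was not tested. CHEK1, the effector kinase of the replication checkpoint, went from 25.7 to 32.4 TPM untreated (median 28.6 TPM) to 7.09 to 13.9 TPM with E (median 10.4 TPM; log2 difference -1.38, SE 0.08, limma adjusted p = 2.12e-09). CHEK2, the effector kinase of the break checkpoint, went from 13.5 to 25.4 TPM (median 19.0 TPM) to 5.62 to 10.1 TPM (median 8.55 TPM; log2 difference -1.08, SE 0.10, adjusted p = 4.98e-07). TOPBP1, which activates ATR, differed by -0.96 (SE 0.04). ATR, the kinase above CHEK1, had a smaller fall of -0.36 (SE 0.07) with overlapping ranges. ATM, the kinase above CHEK2, lay between 10.8 TPM in KD and 20.9 TPM in PAR untreated (median 15.1 TPM) and between 9.73 TPM in PAR and 24.2 TPM in Y643F with E (median 16.0 TPM). Its mean difference of 0.05 (95% interval -0.24 to 0.33, adjusted p = 0.763) covered a spread from -1.03 in PAR to 0.55 in Y643F. CHEK2 has related copies elsewhere in the genome, and reads shared with them may be divided.

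Among the genes that dissolve or cut joined DNA molecules, 4 of 5 were called lower and 1 higher. BLM, the helicase that dissolves junctions, and its partners RMI1 and RMI2 differed by -1.46 (SE 0.10), -0.99 (SE 0.07) and -1.52 (SE 0.08). RMI2 went from 21.7 to 33.5 TPM untreated (median 27.1 TPM) to 5.52 to 11.5 TPM with E (median 8.80 TPM), without overlap. The 2 subunits of 1 nuclease moved apart. EME1 went from 12.5 to 21.2 TPM (median 16.7 TPM) to 3.51 to 6.79 TPM (median 4.81 TPM; log2 difference -1.63, SE 0.11, limma adjusted p = 8.98e-09). MUS81, the catalytic subunit, went from 24.7 TPM in PAR to 36.1 TPM in Y634F untreated (median 29.6 TPM) to 35.9 TPM in PAR to 48.3 TPM in Y698F with E (median 43.4 TPM). The MUS81 ranges overlapped only through these extremes, and it was higher in 10 of 10 lines, by 0.50 (SE 0.06, adjusted p = 5.27e-06).

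The remaining members were a polymerase and 2 mismatch repair proteins. MSH6, which recognizes mismatched bases, was the most abundant member, with 127 TPM in KO to 165 TPM in WT untreated (median 139 TPM) and 41.3 TPM in Y821F to 54.6 TPM in Y726F with E (median 46.0 TPM). It differed by -1.56 (SE 0.05, limma adjusted p = 1.46e-11). POLQ, the polymerase of microhomology end joining, went from 7.70 to 13.5 TPM (median 9.46 TPM) to 1.66 to 4.61 TPM (median 2.80 TPM; log2 difference -1.47, SE 0.10, adjusted p = 1.79e-08). PMS2, an endonuclease of mismatch repair, lay at 13.5 ± 4.31 TPM untreated and 12.8 ± 2.98 TPM with E (SD, n = 10), a difference of -0.06 that did not pass (95% interval -0.20 to 0.08, adjusted p = 0.455). PMS2 shares sequence with several pseudogenes and its level is uncertain.

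**Figure D2:**
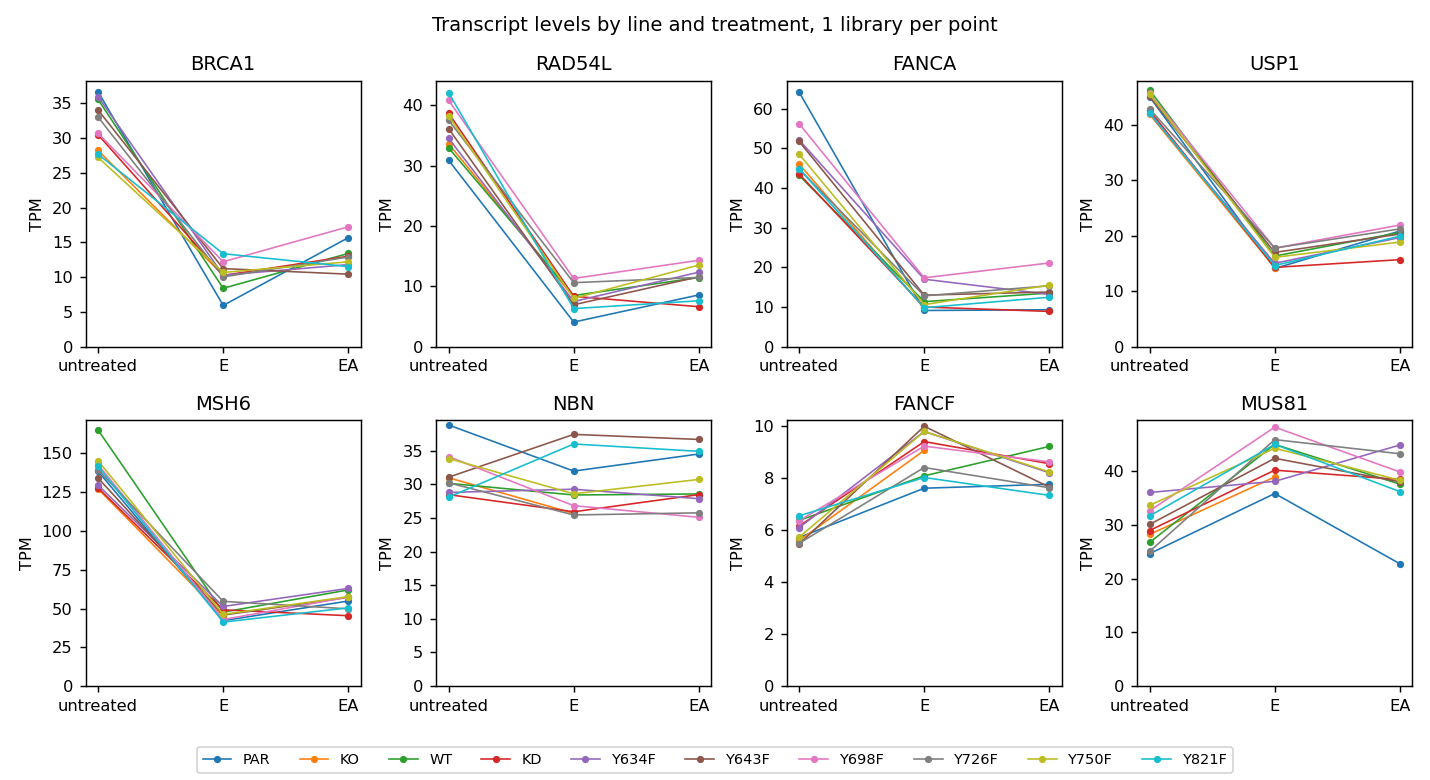
Levels of 8 members in TPM (vertical axes, starting at 0) in untreated, E and EA cells, with 1 line of points per cell line and 1 library per point. BRCA1, RAD54L, FANCA, USP1 and MSH6 drop from untreated to E in every line and stay low with EA, NBN stays between 25.1 and 38.8 TPM, and FANCF and MUS81 rise from untreated to E.

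Part of the RNA of these genes is carried by transcripts that are not annotated as protein coding. The median share of a member's TPM in coding transcripts was 80.1% untreated, 72.5% with E and 80.3% with EA. RAD50 stood lowest of the 41, with 18.4% of its untreated TPM in coding transcripts. The share of FANCC was 57.3% untreated and 43.6% with E, and its coding transcripts summed to a mean of 18.3 and 16.4 TPM. For ATM the share was 46.6% and 36.0%, with 7.03 and 5.66 TPM in coding transcripts. With coding transcripts alone, ATM differed by -0.30 and NBN by -0.20, and NBN then passed (limma adjusted p = 0.0283, against 0.0283 to 1.0 over all its alternatives). Between E and untreated cells FANCC and ATM changed direction in this setting, and no other member did.

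The members' counts can be read against other repair genes in the same fit. Of 48 further genes of recombination and the Fanconi pathway, 30 were called lower and 9 higher, with a median of -0.48. They ran from CLSPN, a checkpoint adaptor, at -2.45 (SE 0.09) to ABRAXAS1, a subunit of a BRCA1 complex, at 0.64 (SE 0.08). Of 15 end joining genes 10 were lower and 4 higher (median -0.51), with PRKDC at -1.07 and POLL at 0.68. Of 16 base excision genes 8 were lower and 4 higher (median -0.19), with FEN1, which also trims replication fragments, at -2.24 and NEIL1 at 1.02. Of 16 nucleotide excision genes 7 were lower and 4 higher (median -0.10), with RAD23B at -0.61 and ERCC5 at 0.67. The differences between these lists were not tested.

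**Figure D3:**
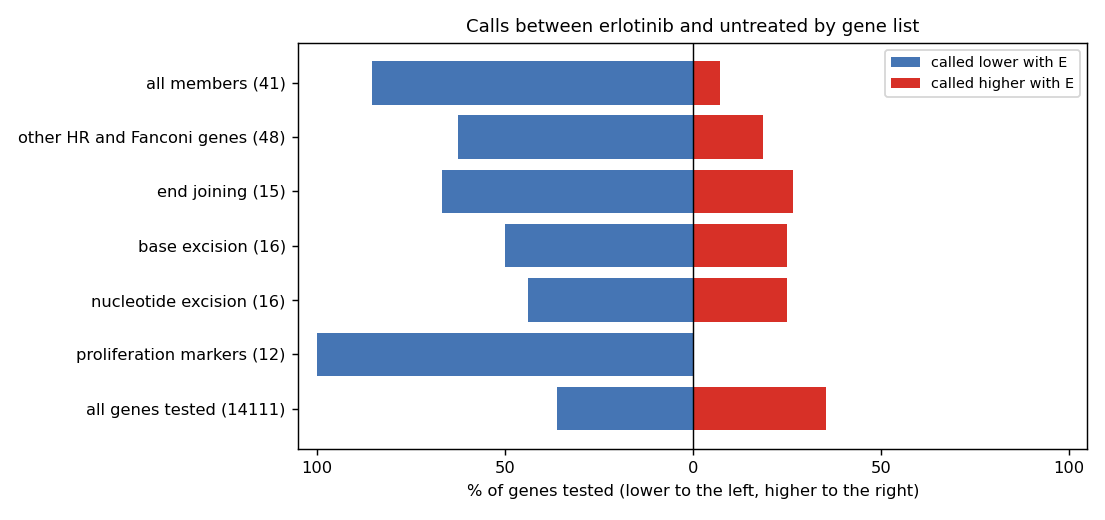
Share of the genes tested in each list (percent, horizontal axis) that were called lower with E (bars to the left) or higher (bars to the right) at a limma adjusted p under 0.05. Numbers in brackets are genes tested. The 41 members have 35 calls to the left, nucleotide excision 7 of 16, proliferation markers 12 of 12, and all genes near equal shares of 36.3% and 35.5%.

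Adding AF154 to erlotinib was followed by small differences, mostly upward. In the 8 lines with a kinase-competent receptor (PAR, WT and the 6 tyrosine mutants), 35 of 41 members had a mean EA minus E above 0, against 54.9% of all genes, with a median of 0.20 against 0.01 over all genes. USP1 and FANCI were called higher and none lower, against 0.411% and 0.0638% of all genes tested, which are 58 genes higher and 9 lower. At an unadjusted p under 0.05 there were 22 of 41 members, 21 of them higher, against 16.9% of all genes in either direction and 10.1% higher. RAD54L, UBE2T, FANCI, USP1 and BLM were higher in each of the 8 lines, as were 3.05% of all genes, and none was lower in each, as were 1.37%.

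USP1 was the one member of 41 whose EA libraries in these 8 lines all lay above the E libraries, as did 0.177% of all genes. With E they ran from 14.1 TPM in PAR to 17.8 TPM in Y726F, and with EA from 18.9 TPM in Y750F to 21.9 TPM in Y698F. The means were 16.1 ± 1.40 TPM and 20.4 ± 0.958 TPM (SD, n = 8), a log2 difference of 0.33 (SE 0.05, limma adjusted p = 0.0280). FANCI ran from 17.7 TPM in PAR to 32.8 TPM in Y698F with E and from 24.8 TPM in PAR to 37.7 TPM in Y698F with EA, so that its ranges overlapped. It was higher in 8 of 8 lines, from 0.13 in Y726F to 0.48 in Y821F, with a mean of 0.29 (SE 0.05, adjusted p = 0.0451). Neither call was firm. That of USP1 was kept without PAR (adjusted p = 0.0469) and lost on leaving out any of the other 7 lines (0.0517 to 0.0959), and that of FANCI was lost without each of the 8 (0.0541 to 0.124).

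Just outside the threshold were RAD54L, RAD51AP1, MSH6 and UBE2T. RAD54L was above 0 in 8 of 8 lines, from 0.10 in Y726F to 0.91 in PAR, with a mean of 0.50 (SE 0.09, limma adjusted p = 0.0517). RAD51AP1 differed by 0.45 (SE 0.09, adjusted p = 0.0633), with Y726F at -0.01 and the other lines between 0.29 and 0.93. MSH6 differed by 0.28 (SE 0.06, adjusted p = 0.0633) and was below 0 in Y726F alone. UBE2T differed by 0.31 (SE 0.08, adjusted p = 0.0889). With the stricter filter of 10 TPM, RAD54L, RAD51AP1 and MSH6 joined USP1 and FANCI, and with coding transcripts alone BARD1, FANCL and TOPBP1 joined those 5.

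Below 0 were MUS81 at -0.21 (SE 0.08), FANCF at -0.12 (SE 0.07), CHEK2 at -0.09 (SE 0.08), ATR at -0.07 (SE 0.09), ATM at -0.06 (SE 0.10) and NBN, which lay at 30.5 TPM on both sides. None of these passed (limma adjusted p = 0.197 to 0.999). The E libraries are shared with the comparison against untreated cells, so both are given side by side only. MUS81 and FANCF, which rose with E, had lower means with EA, at 37.7 against 43.1 TPM and 8.09 against 8.87 TPM (n = 8). EME1 differed by 0.01 with the widest spread, from -1.32 in Y821F to 0.64 in Y750F (95% interval -0.42 to 0.43).

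**Figure D4:**
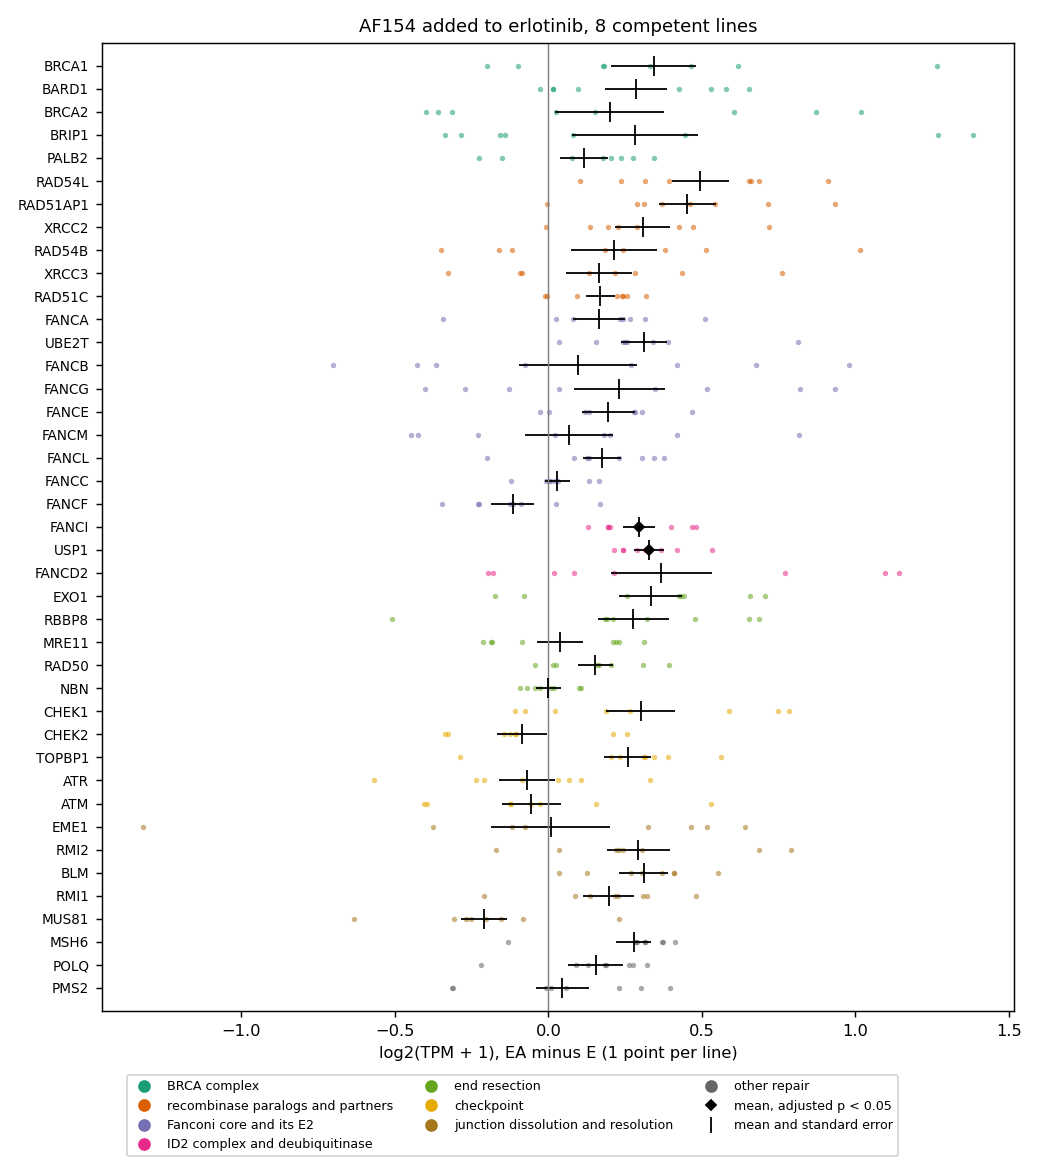
Each point is the difference between the EA and the E library of 1 of the 8 lines with a kinase-competent receptor, in log2(TPM + 1), for each of the 41 members ordered by role. Bars are the mean and its standard error from limma, and diamonds mark an adjusted p under 0.05, which USP1 and FANCI reached. Most means lie between 0 and 0.50.

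The kinase dead line gave 1 pair of libraries and no test. There 17 of 41 members were above 0, against 7208 of all 14111 genes tested. The median EA minus E was -0.05, against 0.00 over all genes. USP1 went from 14.3 to 15.7 TPM and FANCI from 22.2 to 21.8 TPM. In each of the 8 other lines the member median was above 0, from 0.04 in Y726F, with 24 members above 0, to 0.41 in PAR, with 36. The difference between KD and these lines was not tested.

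The proliferation markers moved with the members here too. Of the 12, 6 were called higher with EA, with a median of 0.34, and their medians by line ran from 0.17 in WT to 0.59 in PAR, with 0.02 in KD. Of the other repair lists no gene was called (limma), although 13 of 48, 4 of 15, 4 of 16 and 1 of 16 had an unadjusted p under 0.05, against 16.9% of all genes tested. The part of the proliferation markers in the members' values was not tested. Under erlotinib alone the member median ran from -1.42 in PAR to -0.89 in Y634F, and that of the knockout line KO was -1.36.

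**Figure D5:**
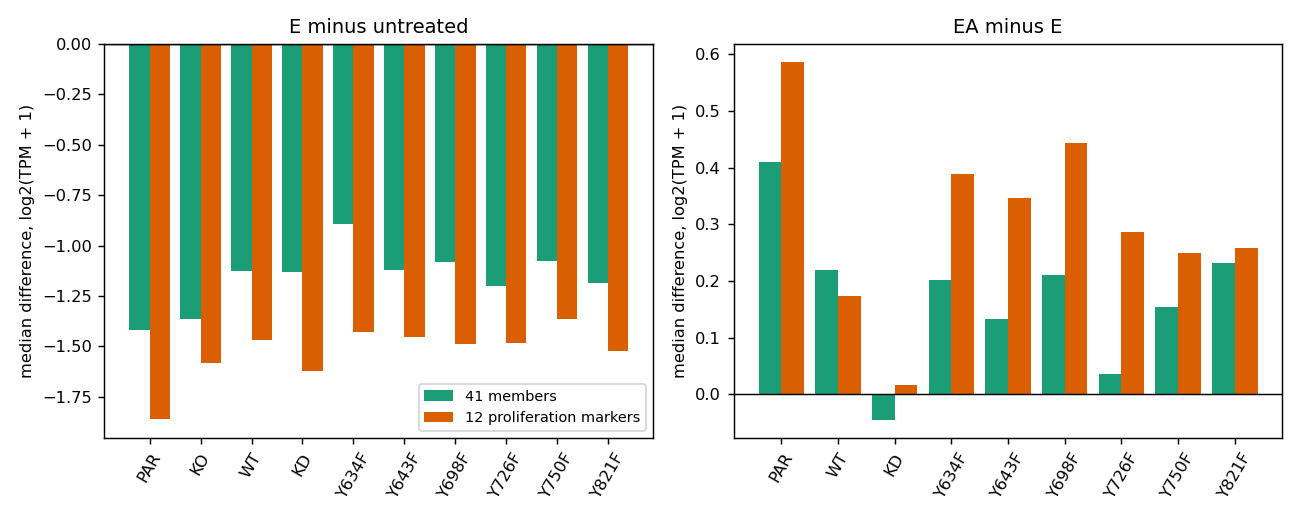
Median log2(TPM + 1) difference of the 41 members (green) and of 12 proliferation markers (orange) in each line, E minus untreated on the left and EA minus E on the right. Each bar is a median over genes in 1 pair of libraries and has no error bar. With E all bars are negative, and with EA the member median is above 0 in every line shown but KD.

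Levels with EA stayed far from untreated levels. In the 8 lines, 34 members were lower with EA than untreated and 3 higher, against 31.6% and 31.1% of all genes tested, and the median was -1.01. The comparison shares libraries with both others, so its values are given beside theirs only. RAD54L stood at -1.62 (SE 0.10), FANCA at -1.77 (SE 0.12), BRCA1 at -1.25 (SE 0.09), FANCI at -1.50 (SE 0.07) and USP1 at -1.08 (SE 0.05). FANCF at 0.38 (SE 0.07), MUS81 at 0.30 (SE 0.08) and FANCC at 0.27 (SE 0.08) were still higher. FANCF was higher in each of the 8 lines. MUS81 and FANCC were higher in 7, but below untreated in PAR, at -0.11 and -0.24. With coding transcripts only FANCC turned to -0.0250. RAD50, NBN, ATM and PMS2 did not pass, with differences from -0.09 to -0.01.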

How the data were processed

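RNA of 10 PC9 lines was measured in 29 libraries. The authors deposited TPM per transcript, which their processing notes link to kallisto and GRCh38. The annotation, versions and strand handling are not given in the sources used here, so reads of overlapping genes on opposite strands could not be told apart. TPM keeps no depth, and the read number and counting error behind a value are unknown, so that the error is the spread between lines.

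Of 188753 transcripts, 169797 were matched to GENCODE 29 and summed to genes, which held 97.0 to 97.4% of the TPM. Mitochondrial genes held 11.4 to 17.4%. A mean of 1 TPM or more over the libraries left 14111 genes, which were tested on log2(TPM + 1), with a pseudocount of 1. The study removed genes under 10 TPM, which is an alternative here, since 14 of the 41 members have a mean under 10 TPM. All 41 passed the 1 TPM filter, and none was at 0 in any library.

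E against untreated (10 lines), and EA against E and against untreated (8 lines, without KD and KO), were fitted in limma 3.58.1 (R 4.3.3; lmFit, eBayes with trend) with the line as a block. The pairing is by line, as given in the labels. Per the study, dishes were treated separately, so paired libraries share the line and not the culture. Adjustment was by Benjamini-Hochberg over all genes tested, threshold 0.05. Intervals are 95% intervals from the fit. The code was tested on simulated data. Tables and plots used Python 3.11.15, numpy 2.4.6, pandas 2.3.3 and matplotlib 3.10.9.

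The members, gene lists and tests were chosen with earlier results of these data known. Values by library were given for the 2 members with the largest change with E in each of 8 roles, members above 0 with E, and members called with EA. From each other list the largest rise and fall were named. Promoter windows came from RefSeq, the one nearest the 5′ end of the coding transcript with the highest untreated level, which for RAD50 lay 34300 bases away. No window was used for FANCI, RMI2, NBN or RAD54B. Alternatives were another pseudocount (0.1), other filters, centring, quantile normalization, no block, quality weights, coding transcripts only, a test against a log2 change of 0.5, KD included, and each line left out.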

Additional observations from a re-analysis of the deposited data

Results flagged for a closer look

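The changes of 20 members (those given by library) and the median change of all 41 were examined by line, with E against untreated (10 lines) and EA against E (8 lines), for a line that stood apart by Dixon's 95% criterion. This picked 7 of 42 groups, and chance alone gives about 1 in 20, or 2.1. PAR accounted for 3 of the 7. The E library of PAR also stood apart over all genes, with a median E minus untreated of -0.156 and 17.4% of its TPM in mitochondrial genes, against -0.03 to 0.07 and 12.3 to 14.2% in the other lines.

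With erlotinib, FANCA fell furthest in PAR, at -2.68 against -2.13 in the nearest line. ATM was also lowest in PAR, at -1.03 against -0.24 in the nearest line, and EXO1 fell least in Y698F, at -1.14 against -1.61. With EA against E, UBE2T was highest in PAR, at 0.81 against 0.39. RBBP8 was lowest in Y750F, at -0.51 against 0.18, MSH6 in Y726F, at -0.13 against 0.28, and POLQ in Y643F, at -0.22 against 0.09. For RBBP8, MSH6 and POLQ the line that stood apart was the only 1 of the 8 that was below 0. All values are log2(TPM + 1) differences, each from 1 pair of libraries, and no test was run on single lines.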

How the results depend on the processing

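With E against untreated, 38 members were called and 37 or 38 under each alternative but 2: 24 of 27 members when a mean of at least 10 TPM was required, which tests fewer genes, and 28 against a log2 change of 0.5. All genes called went from 10125 to 3399 in that last test. With EA against untreated, 37 members were called, 23 of 27 at 10 TPM, and the genes called went from 8846 to 2429 against a log2 change of 0.5.

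EA against E depended on the processing. The 67 genes called became 214 with the 10 TPM filter, 258 with coding transcripts only, 32 with centred libraries, 27 with the KD pair, 6 with no filter and 0 against a log2 change of 0.5 (limma; 13 at an unadjusted p under 0.05). The 2 members called became 5, 8, 1, 1, 0 and 0, and 1 with quantile normalization. With no replicate block, 3 genes and 0 members were called, and the block changed no other count by over 1.5 times. Leaving out 1 line gave 0 to 38 genes and 0 to 2 members. The genes called were 34 without PAR, 38 without WT, 0 without Y634F, 6 without Y643F, Y698F or Y750F, 20 without Y726F and 5 without Y821F. The cause was not tested.

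The sign of some differences turned. FANCC, called higher than untreated with E and with EA, turned in both with coding transcripts only, and the other differences that turned had not passed the test. With coding transcripts only, E against untreated gave FANCC -0.157 and ATM -0.304, EA against E gave MRE11 -0.0172, NBN 0.0164 and ATR 0.0326, and EA against untreated gave FANCC -0.0250, RAD50 0.0909 and PMS2 0.0579. With the KD pair NBN was 0.0145 and EME1 -0.0379. Centring turned EME1 to -0.0159 (EA against E) and PMS2 to 0.00943 (EA against untreated), and quality weights turned PMS2 to 0.0244. With 1 line left out, ATM (E against untreated) ran from -0.00913 to 0.167. In EA against E the ranges were -0.0834 to 0.197 for EME1, -0.0154 to 0.0132 for NBN, -0.0301 to 0.210 for FANCB, -0.0397 to 0.141 for FANCM, -0.00154 to 0.0735 for MRE11, -0.127 to 0.00104 for ATR and -0.00496 to 0.0965 for PMS2. In EA against untreated PMS2 ran from -0.0773 to 0.0524. The depth is unknown, and 1 library per line and treatment limits what can be said of single lines.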
